A study of Mus musculus with 4 samples.

Results

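The cells described here were deep basal mammary cells in which no Tfap2c transcript was counted. A cell counted as deep when it held at least 5000 unique molecular identifiers (UMIs, each standing for 1 captured RNA molecule). It counted as basal when its summed UMIs of Krt5, Krt14, Krt17 and Acta2 were at least 5 and more than 3 times its summed UMIs of Krt8, Krt18 and Krt19. Of 18223 cell barcodes in the 4 libraries, 5553 were deep and 1461 of those were basal. No Tfap2c UMI was found in 364 of the 1461 cells, 585 held 1 or 2 and 512 held 3 or more. The cells were thus chosen by their counts of Tfap2c, the keratins and Acta2, so these genes are described without a test. Below, without Tfap2c is short for no Tfap2c UMI counted, and with Tfap2c for 3 or more. A cell with no UMI counted need not lack the transcript.

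Each library held mammary epithelial cells of 1 of 4 FVB mice of genotype Tfap2c fl/fl / Krt5-CreERT2, taken at postnatal week 9. Corn oil, the vehicle, was injected daily into 2 mice at 4 weeks of age, and 4-hydroxytamoxifen (4OHT) into the other 2. The labels give the course once as 5 days and once as a week. All 4 mice carried the floxed alleles and the recombinase, which is made under the Krt5 promoter and hence in basal cells, and which needs 4OHT to act. The stated purpose was to learn how a conditional knockout of Tfap2c affects stem cells of the gland.

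Tfap2c encodes AP-2γ, a transcription factor of embryonic surface ectoderm, trophectoderm and mammary epithelium that binds GC-rich palindromes in promoters and enhancers. Basal cells form the outer layer of mammary ducts. They rest on the basement membrane, make keratins of stratified epithelia, contract under oxytocin to eject milk and include the cells that can rebuild a gland after transplantation.

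The libraries labelled 4OHT did not have less Tfap2c in deep basal cells than the libraries labelled corn oil. Tfap2c (chr2:172549593-172558622, plus strand, GRCm38) stood at 417 and 232 counts per 1000000 UMIs of the summed cells (CPM) in corn oil replicates 1 and 2, and at 319.6 and 277 CPM in 4OHT replicates 1 and 2. The 4OHT values lay between the corn oil values. The deleted part of the gene is not given in the sources used here, and a 3′ count can include a transcript that lost an internal exon, so this level does not check the labels. Every statement on treatment below therefore refers to the library as labelled.

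Deep basal cells numbered 804 and 179 in corn oil replicates 1 and 2, and 358 and 120 in 4OHT replicates 1 and 2. Those without Tfap2c UMIs numbered 154, 60, 109 and 41 in that order. Total UMIs per library ran from 17351950 to 22017878. Between 18 and 36 barcodes were shared by any pair of libraries, none of them among the 364 cells. Some defining transcripts of other cell types were at 0 in the 364 cells of every library: Rgs5, Kcnj8 and Abcc9 of pericytes, Kdr and Tie1 of endothelium, and Ptprc, Laptm5 and Tyrobp of leukocytes. UMIs were found for 8 of 11 genes of the pericyte list, 9 of 9 fibroblast genes, 8 of 10 endothelial genes, 6 of 10 leukocyte genes and 4 of 5 Schwann cell genes. The endothelial gene Pecam1 had 10, 15, 7 and 15 UMIs in corn oil 1, corn oil 2, 4OHT 1 and 4OHT 2. In cells matched for depth, the summed fibroblast list ran from 23.5 to 393 CPM, against 10.9 to 32.2 CPM in cells with 3 or more Tfap2c UMIs. Over all cells, corn oil replicate 2 went the other way, at 209.8 against 594 CPM. The matched sums ran from 32.3 to 183 against 75.3 to 103 CPM for pericytes, 18.2 to 129 against 7.78 to 102 CPM for endothelium, 0 to 17.2 against 8.07 to 113 CPM for leukocytes and 14.1 to 26.9 against 7.53 to 19.2 CPM for Schwann cells. The test given below was also run without every cell with 3 or more UMIs of a marker list of another cell type. Then 820 of 3662 tested genes passed, against 877 of 3958. Basal genes that the choice did not use were present: the summed basal identity list, which holds Trp63 and Itgb4, stood at 1834 to 2989 CPM in cells without Tfap2c and at 2567 to 3533 CPM in cells with 3 or more.

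Cells with a single Tfap2c UMI were somewhat deeper than cells without. In corn oil replicate 1 the 154 cells without Tfap2c UMIs held a median of 5952 UMIs and the 176 cells with a single Tfap2c UMI held 6385. The limit of 5000 UMIs left out 55, 43, 57 and 30 basal cells without Tfap2c UMIs that held 4500 to 4999 UMIs. The basal gate also left deep cells in neither the basal nor the luminal gate, and their Tfap2c stood at 467, 160.4, 428 and 326 CPM in the same order of libraries.

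Zeros were more frequent than even sampling of the mean would give. Deep basal cells of corn oil replicate 1 held 2.84 Tfap2c UMIs on average and up to 20, with 19.2% at 0 where a Poisson draw at each cell's depth gives 7.0%. The observed and Poisson shares were 33.5% and 23.9% in corn oil replicate 2, 30.4% and 13.1% in 4OHT replicate 1, and 34.2% and 18.2% in 4OHT replicate 2. All 4 libraries had an excess, from 1.40 to 2.74 times the Poisson share. Sampling at a fixed mean would thus by itself leave 7.0% to 23.9% of cells at 0, and which of the 364 cells these are cannot be told apart. Of deep cells in the luminal gate, which make little Tfap2c, 15.4% to 21.0% had a Tfap2c UMI.

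**Figure D1:**
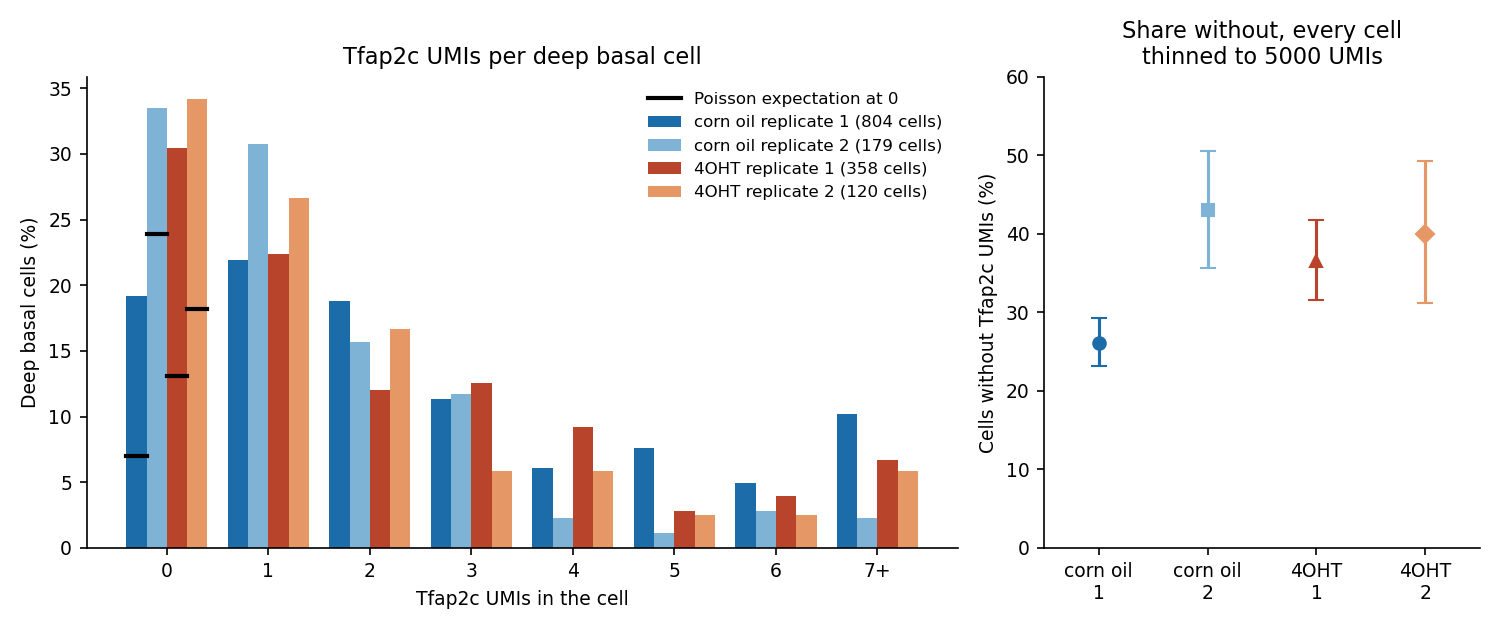
Left, percentage of deep basal cells (vertical axis) by Tfap2c UMIs in the cell (horizontal axis) for the 4 libraries. Right, percentage without a Tfap2c UMI after thinning every cell to 5000 UMIs, with exact 95% binomial intervals; the 4OHT libraries (36.6% and 40.0%) lie between the corn oil libraries (26.1% and 43.0%).

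The shares of cells without Tfap2c UMIs in the 4OHT libraries lay between those of the corn oil libraries. With every deep basal cell thinned to 5000 UMIs, the share was 26.1% (exact Clopper-Pearson 95% interval 23.1% to 29.3%) in corn oil replicate 1 and 43.0% (35.7% to 50.6%) in corn oil replicate 2. It was 36.6% (31.6% to 41.8%) in 4OHT replicate 1 and 40.0% (31.2% to 49.3%) in 4OHT replicate 2. The intervals cover counting error only. Means were 34.6% ± 11.9 (SD, n = 2) for corn oil and 38.3% ± 2.41 (SD, n = 2) for 4OHT. The 4OHT mean was 3.73 percentage points higher (exact two-sided permutation p = 1, where 0.333 is the smallest that 2 libraries against 2 allow). Without thinning, the shares were 19.2% and 33.5% for corn oil and 30.4% and 34.2% for 4OHT. The difference rested on corn oil replicate 1: without it, the 4OHT mean was 4.72 points lower than corn oil replicate 2 (−4.72).

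Across genes, the cells without Tfap2c UMIs were compared with deep basal cells that held 3 or more, drawn in equal numbers at the same depth within each library (154, 31, 99 and 21 cells of each kind). UMIs were summed per library and kind, which gives 4 pairs of sums. Of 3958 genes tested by edgeR's quasi-likelihood test with library as a block, 393 were higher in the cells without Tfap2c (9.93% of the genes tested) and 484 were lower (12.2%), at an adjusted p under 0.05. The median log2 fold change of all genes was 0.01. The share of all tested genes whose sums did not overlap between the kinds of cell was not counted. Statements below that groups did not overlap therefore have no background to compare with. Genes of glycolysis and the hypoxia response, endoplasmic reticulum (ER) chaperones and ATF4 targets were lower in cells without Tfap2c, while interferon-induced genes and part of the heat shock, oxidative stress and immediate early genes were higher. The gene lists were chosen with earlier results of these data known, so their counts beside the shares of all tested genes are descriptions.

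**Figure D2:**
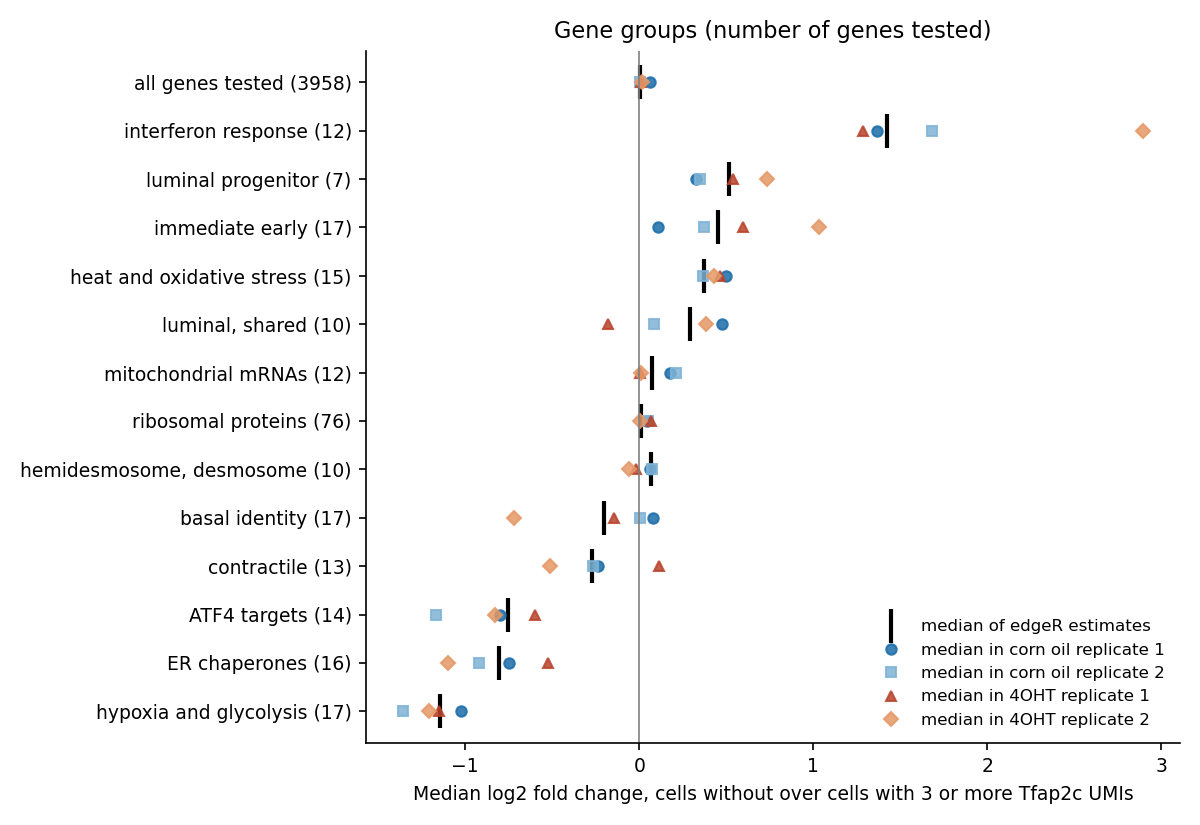
Median log2 fold change per gene group (horizontal axis), cells without over cells with 3 or more Tfap2c UMIs; vertical bars are medians of edgeR estimates, points the medians within each library, and the number of tested genes stands in parentheses. Hypoxia and glycolysis genes lie lowest (−1.15) and interferon genes highest (1.42), and all 4 libraries lie on the same side of 0 for both.

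The hypoxia and glycolysis genes gave the lowest group median. Of 17 tested genes of this list, 16 passed the test as lower and none as higher, beside 12.2% lower among all tested genes. The median log2 fold change was −1.15 against 0.01 over all genes. All 17 were lower in all 4 libraries, as were 16.7% of all genes. Summed over the list, cells without Tfap2c UMIs held 16683, 14122, 13426 and 14701 CPM in corn oil 1, corn oil 2, 4OHT 1 and 4OHT 2. Cells with 3 or more held 35696, 33254, 28805 and 31213 CPM. The highest sum of the former lay far below the lowest of the latter.

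Slc2a1 encodes GLUT1, the main glucose carrier of epithelial cells. It stood at 1853, 1287, 1140.1 and 1141 CPM in cells without Tfap2c and at 4929.7, 3447, 3537 and 3492 CPM in cells with 3 or more, in the same order of libraries. The groups did not overlap, and the log2 fold change was −1.55 (SE 0.07, edgeR adjusted p = 1.36e-10). Vegfa, the endothelial growth factor induced by low oxygen, stood at 316, 91.6, 235 and 183 CPM against 816, 521, 622 and 534 CPM. Every sum of cells without Tfap2c UMIs lay below every sum of cells with 3 or more, at a log2 fold change of −1.62 (SE 0.15, edgeR adjusted p = 1.01e-06). Ndrg1, a stress gene of differentiating epithelium, stood at a log2 fold change of −1.58, and its highest level without Tfap2c (1144 CPM) lay below its lowest with it (1799 CPM).

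Genes of glycolytic enzymes were lower too, with fitted changes smaller than that of the carrier. Gapdh, which oxidises glyceraldehyde phosphate, was at 3161, 3926, 2643 and 4117 CPM against 6425, 7362, 5216 and 6977 CPM, a log2 fold change of −0.95 (SE 0.06, edgeR adjusted p = 1.33e-08). The groups did not overlap. The log2 fold change was −1.06 for Ldha, which makes lactate, −1.14 for Pgk1, −1.21 for Gpi1 and −1.11 for Pgam1. Ero1l, an ER oxidase induced by hypoxia, stood at −1.53 and the vasodilator peptide gene Adm at −1.38. Hilpda, a lipid droplet protein gene induced by hypoxia, stood at −1.60. Pdk1, which keeps pyruvate out of mitochondria, was the single tested member of the list that did not pass (log2 fold change −0.65, edgeR adjusted p = 0.0757).

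Promoters of some of these genes, each with matches, are shown because low-oxygen factors bind a short core in many of them. Not every promoter searched held a match: Vegfa had 0 at chr17:46032328-46032627 and 2 at its other start site, chr17:46025114-46025413. The letters searched on both strands were ACGTG or GCGTG in the 300 bases from 250 before to 50 after the gene start, and matches stand in capitals below. Sequences are from RefSeq (GRCm38.p6). Slc2a1 is at chr4:119108495-119108794 on the plus strand, Bnip3, a mitophagy gene with 5 partly overlapping matches, at chr7:138909457-138909756 on the minus strand, and Pgk1 at chrX:106186850-106187149 on the plus strand, each written 5′ to 3′ along the gene.
Slc2a1: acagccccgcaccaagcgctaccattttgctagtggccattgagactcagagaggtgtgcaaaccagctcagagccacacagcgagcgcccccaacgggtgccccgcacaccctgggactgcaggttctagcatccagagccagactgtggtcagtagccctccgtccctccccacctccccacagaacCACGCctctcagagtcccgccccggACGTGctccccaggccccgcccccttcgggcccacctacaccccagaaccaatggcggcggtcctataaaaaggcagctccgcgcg
Bnip3: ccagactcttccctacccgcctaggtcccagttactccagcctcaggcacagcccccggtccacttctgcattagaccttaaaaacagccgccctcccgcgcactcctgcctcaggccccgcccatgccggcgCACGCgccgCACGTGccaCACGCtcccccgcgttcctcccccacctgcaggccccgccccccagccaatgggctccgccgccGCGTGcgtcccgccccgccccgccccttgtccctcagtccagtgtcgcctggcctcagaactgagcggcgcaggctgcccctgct
Pgk1: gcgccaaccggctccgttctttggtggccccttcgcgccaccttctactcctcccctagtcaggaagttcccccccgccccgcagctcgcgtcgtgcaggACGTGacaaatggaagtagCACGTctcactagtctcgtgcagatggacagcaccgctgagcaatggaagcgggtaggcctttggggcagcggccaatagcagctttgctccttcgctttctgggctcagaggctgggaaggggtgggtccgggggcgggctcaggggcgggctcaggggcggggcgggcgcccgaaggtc
Shares were counted per gene with a promoter in the RefSeq table, and a match at any start site of the gene counted. At least 1 match was found in 14 of the 15 list members with a promoter (93.3%) and in 79.8% of the lower genes. It was found in 72.7% of the tested genes and in 46.7% of all genes with a promoter. A match is a description of letters, not a binding site or a cause. For the AP-2 palindrome GCCNNNGGC, the shares were 31.8% of lower genes, 26.1% of higher genes, 30.2% of tested genes and 18.5% of all genes with a promoter.

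**Figure D3:**
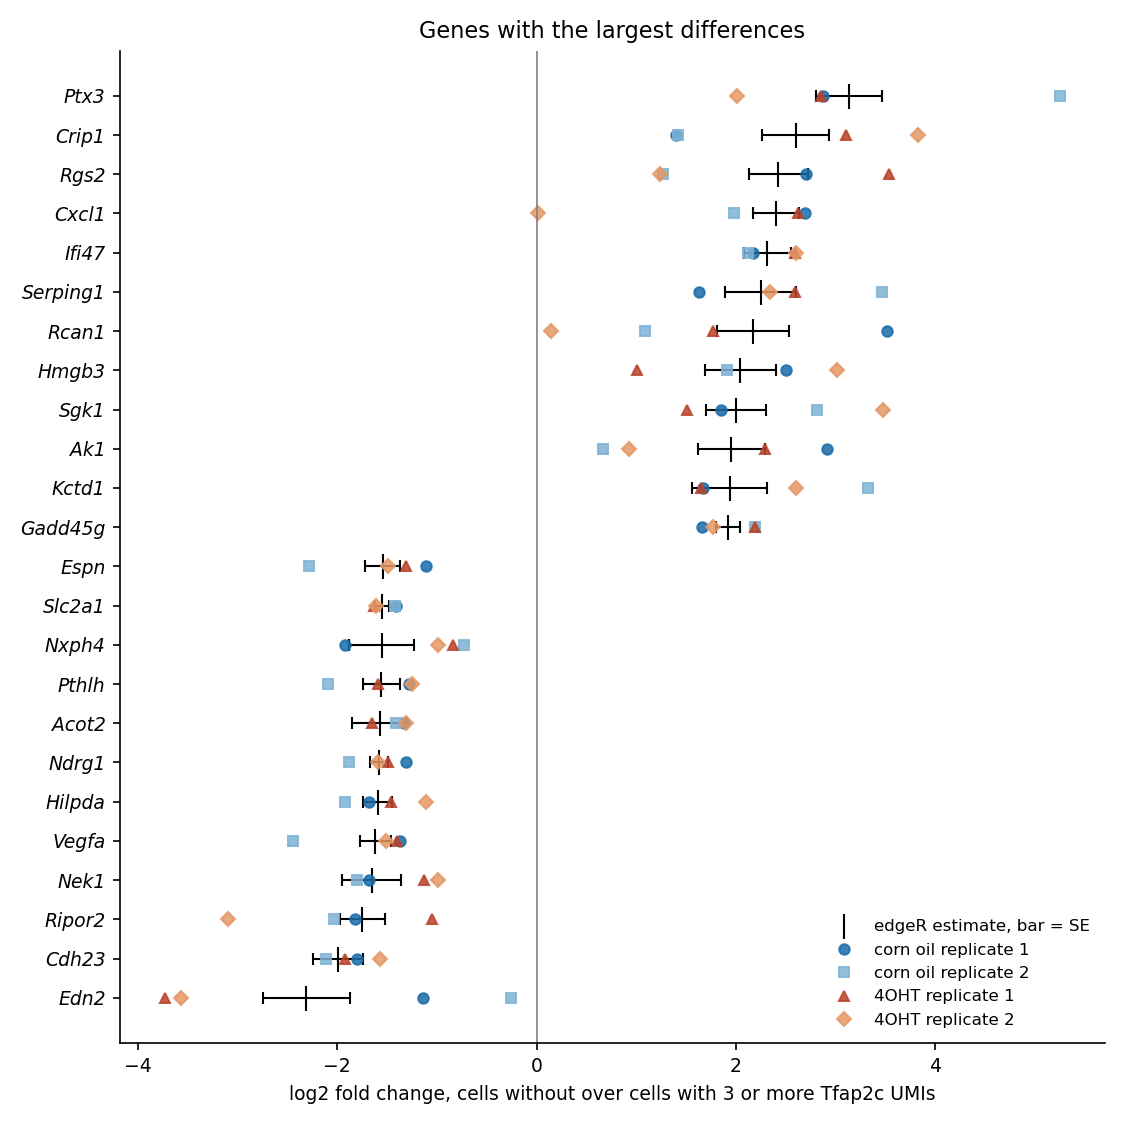
The 12 genes with the largest log2 fold change in each direction (horizontal axis, cells without over cells with 3 or more Tfap2c UMIs); bars are the edgeR estimate and its SE, points the difference within each of the 4 libraries. Ptx3 (3.14) and Edn2 (−2.31) are at the ends. The genes were chosen to have 1 sign in all 4 libraries, and the point of Cxcl1 in 4OHT replicate 2 lies at 0.016.

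Genes of protein folding in the ER were also lower. Of 16 tested ER chaperone genes, 13 were lower and none higher, beside 12.2% lower among all tested genes. Their median log2 fold change was −0.81. Their summed level was 10132, 9231, 10899 and 8614 CPM in cells without Tfap2c and 17244, 17833, 16172 and 18094 CPM in cells with 3 or more, without overlap. Hsp90b1, the ER form of HSP90, was at 1598, 1153, 1583 and 997 CPM against 2757, 2481, 2288 and 2695 CPM (log2 fold change −0.96, SE 0.10, edgeR adjusted p = 4.25e-06). Ddit3, the stress factor CHOP, stood at −1.04, Herpud1, of ER degradation, at −0.98 and the chaperone partner Sdf2l1 at −0.96.

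Most genes induced by the stress factor ATF4 were lower as well. Of 14 tested, 10 were lower and none higher (median log2 fold change −0.76), beside 12.2% lower among all tested genes. Ddit4, an inhibitor of growth signalling that is also induced by hypoxia, was at 836, 668, 758 and 1073 CPM against 2307, 2185, 1969 and 1912 CPM (log2 fold change −1.39, SE 0.11, edgeR adjusted p = 1.24e-07). Its groups did not overlap. Asns, which makes asparagine, stood at −1.05, the stress sensor Sesn2 at −1.20 and the serine enzyme gene Psph at −1.12. The cystine carrier gene Slc7a11 had the opposite sign and did not pass (log2 fold change 0.57, edgeR adjusted p = 0.300).

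Interferon-induced genes were higher in cells without Tfap2c. Of 19 listed, 12 had enough counts to be tested. Of these, 11 were higher and none lower, beside 9.93% higher among all tested genes. Their median log2 fold change was 1.42. Among the genes too low to be tested, Rsad2, an antiviral enzyme gene, had 118 UMIs in cells without Tfap2c against 39 with 3 or more, and Ifih1, a sensor of foreign RNA, had 25 against 8. Ifit1, which binds foreign RNA, was at 334, 732, 167 and 107 CPM against 99.9, 113, 65.3 and 0 CPM (log2 fold change 1.89, SE 0.23, edgeR adjusted p = 2.05e-05). Within each library Ifit1 was higher in cells without Tfap2c UMIs. Such cells of 4OHT replicate 2 (107 CPM) lay below the cells of corn oil replicate 2 with 3 or more (113 CPM). Irf7, the factor that amplifies interferon production, stood at a log2 fold change of 1.68, Oasl2 at 1.64 and Xaf1 at 1.73. Ifi47, an interferon-induced GTPase gene outside the list, stood at 2.32.

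Interferon-induced UMIs were uneven across cells. In cells thinned to 5000 UMIs the median sum over the list was 2, 10.5, 1 and 1 UMIs in cells without Tfap2c, while 10% of the cells held at least 38.1, 57.1, 21 and 22 UMIs. Corn oil replicate 2 had the highest median. Summed by library, the list ran from 1431 to 3372 CPM without Tfap2c and from 128 to 1165 CPM with 3 or more.

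Promoters of Ifit1 and the ubiquitin-like modifier gene Isg15 are shown for the interferon-stimulated response element, searched as GAAA, any 2 bases and GAAA on both strands. Ifit1 is at chr19:34640639-34640938 on the plus strand and Isg15, with 3 overlapping matches, at chr4:156200769-156201068 on the minus strand.
Ifit1: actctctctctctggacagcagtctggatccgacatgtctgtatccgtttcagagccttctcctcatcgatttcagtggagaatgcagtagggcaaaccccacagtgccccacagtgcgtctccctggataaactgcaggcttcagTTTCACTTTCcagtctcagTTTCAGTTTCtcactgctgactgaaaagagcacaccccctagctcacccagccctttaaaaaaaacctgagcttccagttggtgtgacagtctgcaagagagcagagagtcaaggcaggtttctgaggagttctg
Isg15: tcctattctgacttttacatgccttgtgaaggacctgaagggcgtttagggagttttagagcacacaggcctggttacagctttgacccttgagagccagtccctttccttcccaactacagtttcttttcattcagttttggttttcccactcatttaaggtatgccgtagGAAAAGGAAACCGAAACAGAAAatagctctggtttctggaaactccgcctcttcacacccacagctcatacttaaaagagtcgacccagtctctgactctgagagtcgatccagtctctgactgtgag
The letters were present in 8 of 14 list members with a promoter in the table (57.1%), and Irf7 had 0 matches. They were present in 9.12% of the higher genes, in 3.71% of the lower genes and in 3.99% of all genes with a promoter.

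Several heat shock genes were higher as well. Of 15 tested heat shock and oxidative stress genes, 7 were higher, 1 was lower and 7 did not pass (median log2 fold change 0.37). Among all tested genes, 9.93% were higher and 12.2% lower. Hspb1, a small heat shock protein gene, was at 4504, 6318, 7913 and 11315 CPM against 2177, 2873, 2310.1 and 8663 CPM (log2 fold change 1.06, SE 0.13, edgeR adjusted p = 1.71e-05). The difference held within every library, but the groups overlapped, and 4OHT replicate 2 was the highest library in both kinds of cell. Hsph1 stood at 1.00, and Hspa1a and Hspa1b at 1.05 and 1.01. The last pair is nearly identical in sequence, so the counting may have divided their reads and the separate values are uncertain. The chaperone genes Dnajb1 and Hspa8 stood at 0.51 and 0.49, the metallothionein gene Mt1 at 0.56, and Hsp90aa1 at 0.25 without passing. Srxn1, an antioxidant gene, was the lower one (log2 fold change −0.72).

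Immediate early genes, which respond within minutes to growth signals and to tissue dissociation, were mixed. Of 17 tested, 7 were higher and 1 (Ier3) lower, beside 9.93% and 12.2% of all tested genes. Their median log2 fold change was 0.45. Egr1 was at 98.2, 291, 256 and 304 CPM against 29.3, 32.2, 96.4 and 97.8 CPM (log2 fold change 1.73, SE 0.21, edgeR adjusted p = 1.71e-05), and every library without Tfap2c was above every library with it. Fos was at 138, 205, 596 and 1134 CPM against 155, 80.5, 121 and 97.8 CPM (log2 fold change 1.53, edgeR adjusted p = 0.00637), with corn oil replicate 1 going the other way. Klf6 and Nr4a1 stood at 0.98 and 0.95, and Jun at −0.19 without passing.

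Ptx3 and Gadd45g were among the 12 largest differences upward. Ptx3, a secreted pattern recognition protein of innate defence, was at 65.8, 199, 111 and 145 CPM against 8.07, 0, 14.0 and 30.1 CPM (log2 fold change 3.14, SE 0.33, edgeR adjusted p = 3.79e-06). The groups did not overlap, but 1 cell held 63.8% of the Ptx3 UMIs of 4OHT replicate 2. Ptx3 had a UMI in 14.6% of the 364 cells and in 4.49% of cells with 3 or more Tfap2c UMIs. Gadd45g, a growth arrest gene, was at 406, 1002, 1569 and 2732 CPM against 128, 215, 342 and 798 CPM (log2 fold change 1.92, SE 0.12, edgeR adjusted p = 6.35e-09). It was higher without Tfap2c in each library, and the 4OHT values lay above the corn oil values in both kinds of cell. Other genes among the 12 largest were the chemokine gene Cxcl1 (2.40), the complement inhibitor gene Serping1 (2.25), the calcineurin inhibitor gene Rcan1 (2.17), the G protein regulator gene Rgs2 (2.43), the LIM protein gene Crip1 (2.60) and the kinase gene Sgk1 (2.0). Single cells weighed on 3 of these: 1 cell held 58.5% of the Crip1 UMIs and 1 held 55.6% of the Cxcl1 UMIs of 4OHT replicate 2, and 1 held 70.6% of the Rcan1 UMIs of corn oil replicate 2. In 4OHT replicate 2 Cxcl1 was at 15.2 against 15.1 CPM. In cells with 3 or more Tfap2c UMIs, Serping1 was at 0 to 21.2 CPM and Crip1 at 10.7 to 17.1 CPM. Both entered the test through the cells without Tfap2c UMIs, where they were higher. The inflammatory factor Cebpd stood at 1.78. Of 8 tested NF-κB and cytokine genes 2 were higher, Cebpd and Cxcl1, beside 9.93% of all tested genes.

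Edn2 and Pthlh, both genes of secreted peptides, were among the 12 largest differences downward. Edn2, which encodes a vasoconstrictor, was at 18.2, 21.5, 7.82 and 0 CPM against 41.4, 26.8, 123 and 82.8 CPM (log2 fold change −2.31, SE 0.44, edgeR adjusted p = 0.00105). Pthlh, the parathyroid hormone-related peptide gene, was at 66.8, 32.3, 79.8 and 68.5 CPM against 163, 156, 243 and 173 CPM (log2 fold change −1.56, SE 0.18, edgeR adjusted p = 1.26e-05). Both were lower without overlap between the groups. Genes among the 12 were chosen to have the same sign in every library, so this lack of overlap is a description. Edn2 rested on few cells: it had a UMI in 10 of the 364 cells and in 35 of the 512 with 3 or more Tfap2c UMIs, and its levels in corn oil replicate 2 were close. Edn2 entered the test through the cells with 3 or more Tfap2c UMIs, where it was higher. Cdh23 and Espn, best known from the sensory hair bundle, stood at −1.99 and −1.54, and Ripor2 at −1.75.

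Contractile genes differed in both directions. Of 13 tested contractile genes, 3 were higher and 5 lower, beside 9.93% and 12.2% of all tested genes. The myosin light chain kinase gene Mylk (0.62) and the myosin light chain gene Myl9 (0.67) were higher. Smtn (−0.99), a smooth muscle actin-binding protein gene, and the oxytocin receptor gene Oxtr (−0.69) were lower. Of 17 basal identity genes, 3 were lower and none higher, a share near the 12.2% of all tested genes that were lower. Snai2, a factor of basal fate, stood at −0.70, Id4 at −0.66 and Igfbp2 at −0.71. Sox9, which marks progenitors, stood at −0.69. None of 10 tested hemidesmosome and desmosome genes passed in either direction, at a median log2 fold change of 0.07. At an unadjusted p under 0.05 edgeR counted 1 of them, Dsp (log2 fold change −0.45), and DESeq2 called 0 after adjustment.

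Several luminal genes were higher, although the gate favoured cells with few luminal keratin UMIs. Of 7 tested luminal progenitor genes, 4 were higher and 1 lower, beside 9.93% and 12.2% of all tested genes. Lcn2, a siderophore-binding defence protein gene, was at 2064, 2768, 1195 and 2245 CPM against 861, 2169, 649 and 1264 CPM (log2 fold change 0.81, SE 0.11, edgeR adjusted p = 3.74e-05). It was higher in each library. Csn3 (1.41), which encodes kappa-casein, and Trf (1.34), which encodes transferrin, were higher, and Plet1 was lower (−1.15). In corn oil replicate 2, 1 cell held 114 of the 124 Csn3 UMIs, and without that library the Csn3 value was 0.46 (edgeR adjusted p = 0.221). Csn3 also lost its call without corn oil replicate 1 (2.03, edgeR adjusted p = 0.0911) and without 4OHT replicate 1 (1.76, edgeR adjusted p = 0.115). Without corn oil replicate 1, Trf did not pass (1.82, edgeR adjusted p = 0.0615). Of 10 genes shared by luminal cells, Cd24a (1.04) and Cldn4 (1.22) were higher and none lower, beside 9.93% of all tested genes that were higher. Cldn4 was at 76.9, 48.5, 129.8 and 251.1 CPM against 27.2, 53.7, 76.2 and 7.53 CPM, so corn oil replicate 2 went the other way. Cldn4 did not pass without corn oil replicate 1 (edgeR adjusted p = 0.163). Ly6a, which encodes Sca-1, stood at 1.81. Of the luminal keratins used for the gate, Krt8 and Krt19 were at lower levels in each library, with Krt8 at 434, 582, 443 and 517 CPM against 663, 1020.2, 793 and 1227 CPM. Krt18 was at lower levels in 3 libraries and at 875 against 858 CPM in 4OHT replicate 2. Of the basal genes used for the gate, Krt17 was at 2265, 2364, 1920 and 3424 CPM against 4193, 4967, 2830 and 4576 CPM. Krt5, Krt14 and Acta2 were at higher levels in some libraries and lower in others. The median cell matched for depth held 47, 58, 65 and 79 UMIs of the basal gate genes against 64, 99, 70 and 82.

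Secreted matrix and Wnt genes were mixed too, where 9.93% of all tested genes were higher and 12.2% lower. Of 11 basement membrane and matrix genes, 3 were higher (Thbs1 1.21, Agrn 1.15 and Sparc 0.73) and 3 lower (Hspg2 −0.95 among them). Wif1 and Sfrp1, which encode secreted inhibitors of Wnt, stood at 1.63 and 1.46, and the other 2 tested Wnt genes did not pass. Of 5 YAP target genes, Cyr61 (1.19) was higher, and Tead1 (−1.15) and Ptpn14 (−0.85) were lower.

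The other AP-2 genes did not pass in either direction. Tfap2a was at 70.9, 59.2, 45.4 and 22.8 CPM without Tfap2c and 66.6, 21.5, 77.8 and 30.1 CPM with it (log2 fold change −0.17, SE 0.26, edgeR adjusted p = 0.690). Tfap2b was at 35.4, 75.4, 67.2 and 68.5 CPM against 38.3, 43.0, 82.4 and 60.2 CPM (log2 fold change −0.08, SE 0.23, edgeR adjusted p = 0.860). The groups overlapped for both, and the fitted signs turned under several alternatives. Of 5 tested genes reported as AP-2 targets, the cell cycle inhibitor gene Cdkn1a was lower (−0.83), beside 12.2% of all tested genes. The rest, Gata3 among them, did not pass.

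The hypoxia and glycolysis sum differed along the whole range of Tfap2c counts, other sums less evenly. In cells thinned to 5000 UMIs, the mean summed hypoxia and glycolysis UMIs were 83.5, 72.6, 66.1 and 63.0 at 0 Tfap2c UMIs and 201, 196, 163 and 172 at 5 or more. The mean was higher at each step in all 4 libraries, as a description of cells that share a library. The median cell without Tfap2c held 43.5, 37.0, 36.0 and 40.0 such UMIs, the median cell with 3 or more 187, 155, 142 and 142. Between 12.2% and 16.7% of cells without Tfap2c reached the latter median, so single cells overlapped. The mean interferon sum was 10.9, 21.1, 7.02 and 7.17 UMIs at 0 Tfap2c UMIs and 1.92, 3.36, 1.69 and 0.385 at 5 or more. It was not lower at each step: at a single Tfap2c UMI it was 12.6, 21.1, 5.49 and 5.62 UMIs, higher than at 0 in corn oil replicate 1. The ER chaperone mean was 50.9, 44.5, 50.9 and 35.1 UMIs at 0 and 98.2, 98.9, 100.7 and 76.0 at 5 or more, with falls between neighbouring steps in 3 libraries, such as from 94.6 to 76.0 in 4OHT replicate 2.

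**Figure D4:**
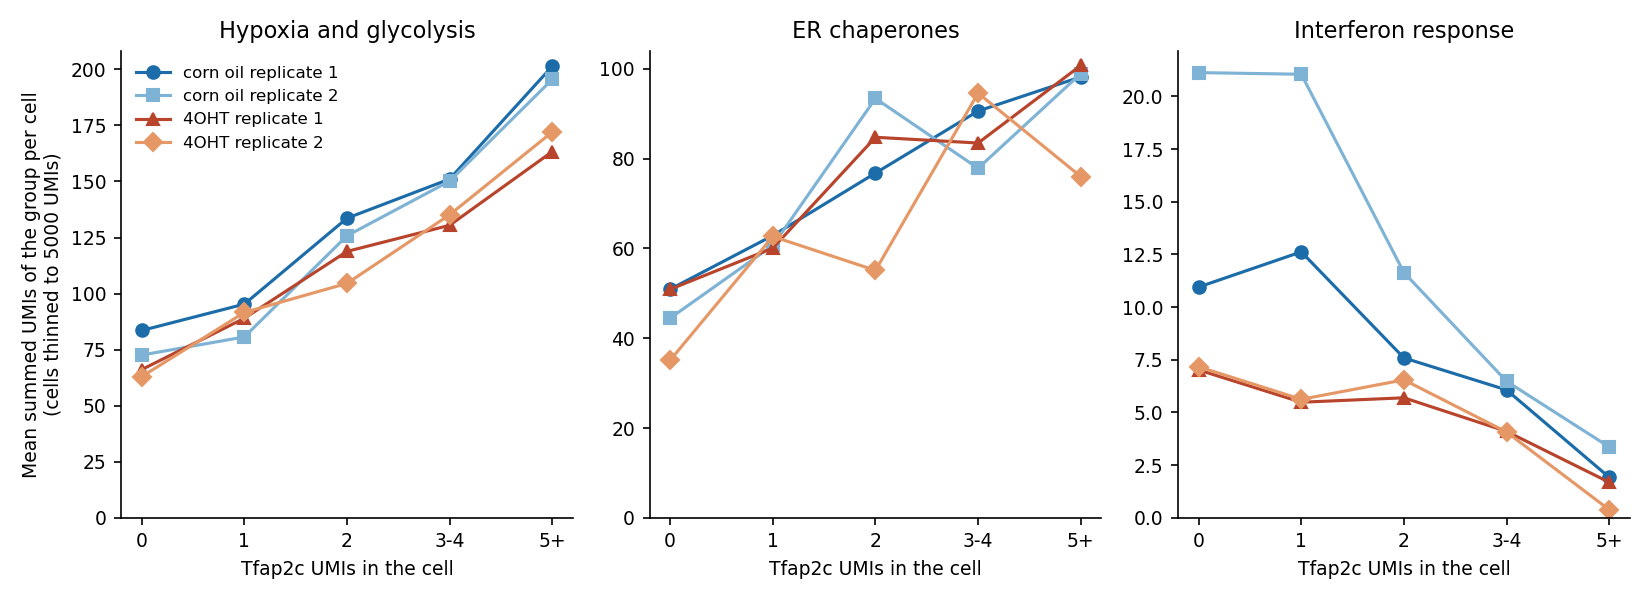
Mean summed UMIs per cell of 3 gene groups (vertical axes, each from 0; cells thinned to 5000 UMIs) by Tfap2c UMIs in the cell (horizontal axis), 1 line per library. The hypoxia and glycolysis sum lies between 63.0 and 83.5 at 0 and between 163 and 201 at 5 or more.

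Slc2a1 and Ndrg1 followed Tfap2c most closely from cell to cell. Over the 1461 thinned deep basal cells, Spearman's rho with Tfap2c, averaged over the 4 libraries, was highest for Slc2a1 (0.435), Ndrg1 (0.431), Gapdh (0.403), Ddit4 (0.399), Ero1l (0.398), Ldha (0.395), Gpi1 (0.395), Pgam1 (0.393), Fam162a (0.377) and Higd1a (0.374). The median of 2317 genes was −0.001. It was lowest for Ifitm3 (−0.302), a membrane protein gene induced by interferon, whose near copy Ifitm2 was also among the lowest 5 with Cebpd, Tsc22d1 and 1600014C10Rik. The cells of a library share its preparation, and these values are descriptions.

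The 2 kinds of cell were close in mitochondrial share (medians of 1.40% to 2.23% without and 1.55% to 2.04% with Tfap2c) and in ribosomal protein share (25.5% to 33.7% and 27.5% to 30.7%). Cells were also matched on the summed hypoxia and glycolysis UMIs as well as on depth, which left 81, 16, 49 and 9 cells of each kind. Then edgeR called 0 of 2374 genes (146 at an unadjusted p under 0.05), and the interferon median was 0.22. The 2374 include the 17 genes of the matched sum, whose differences the matching itself drew towards 0. Fewer cells also remained, 155 of each kind against 305. Without corn oil replicate 1, which held the most cells, 237 of 2127 tested genes passed, and without 4OHT replicate 1, 379 of 2150. Against cells with 1 or 2 Tfap2c UMIs, 91 of 4651 tested genes passed. Of 17 interferon genes edgeR called 0 there (3 at an unadjusted p under 0.05). At 8000 UMIs or more, 22 of 652 tested genes passed, and with at most 2 UMIs of Krt8, Krt18 and Krt19, 0 of 376 did (94 at an unadjusted p under 0.05).

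Within the cells without Tfap2c, 4OHT and corn oil libraries differed in 3 of 5062 tested genes (0.0593%), all higher in the libraries labelled 4OHT (216 passed at an unadjusted p under 0.05). Rgs2, an inhibitor of Gq signalling, was at 77.9 and 87.6 CPM in corn oil and 380.4 and 355 CPM in 4OHT (log2 fold change 2.28, SE 0.27, edgeR adjusted p = 0.0330). The groups did not overlap. It had UMIs in 27, 13, 33 and 19 of the 154, 60, 109 and 41 cells. The difference was not limited to these cells. With 1 or 2 Tfap2c UMIs, Rgs2 was at 27.6 and 40.8 CPM in corn oil and 81.8 and 178 CPM in 4OHT. With 3 or more, it was at 10.1 and 43.0 CPM against 41.5 and 163 CPM. Treatment was not tested in these other cells.

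Leaving out each library in turn gave 0 genes (without corn oil replicate 2) to 73 (without 4OHT replicate 1). The other two genes rested on very few cells. Ccl5, a chemokine of activated lymphocytes and epithelium, had 2 and 1 UMIs in corn oil and 62 and 21 in 4OHT (log2 fold change 5.28, edgeR adjusted p = 0.0141; summed ratio 40.1, counting interval 13.2 to 198). These UMIs lay in 8 and 2 cells of the 4OHT libraries, and 1 cell held 20 of the 21. The Ccl5 ratio was 24.1 (11.7 to 57.7) in cells with 1 or 2 Tfap2c UMIs and 4.06 (2.67 to 6.28) in cells with 3 or more, where single cells of 4OHT replicate 1 held 53 of 81 and 57 of 62 UMIs. Sncg, which encodes gamma-synuclein, had 2 and 1 UMIs against 57 and 21 (log2 fold change 5.21, edgeR adjusted p = 0.0141; ratio 37.7, counting interval 12.4 to 187), of which 38 of the 57 and 20 of the 21 came from 1 cell each. The Sncg ratio was 1.91 (0.846 to 4.24) with 1 or 2 Tfap2c UMIs and 3.18 (0.539 to 21.7) with 3 or more. All these counting intervals treat each UMI as independent and pool the 2 libraries of a treatment. They are too narrow where 1 cell holds most UMIs, and they do not measure the spread between mice. Fos was next, at 138 and 197 CPM against 584 and 831 CPM, and did not pass (log2 fold change 2.21, edgeR adjusted p = 0.105). The interaction of Tfap2c class and treatment passed for 7 genes with a positive sign (0.144%) and 2 with a negative sign (0.041%) of 4875 tested. Of 18 tested interferon genes edgeR called 0 between treatments (8 at an unadjusted p under 0.05, and DESeq2 called 1). All 18 had a log2 fold change below 0 (median −0.84). Over all 5062 tested genes, 2443 were above 0 and the median was −0.018.

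**Figure D5:**
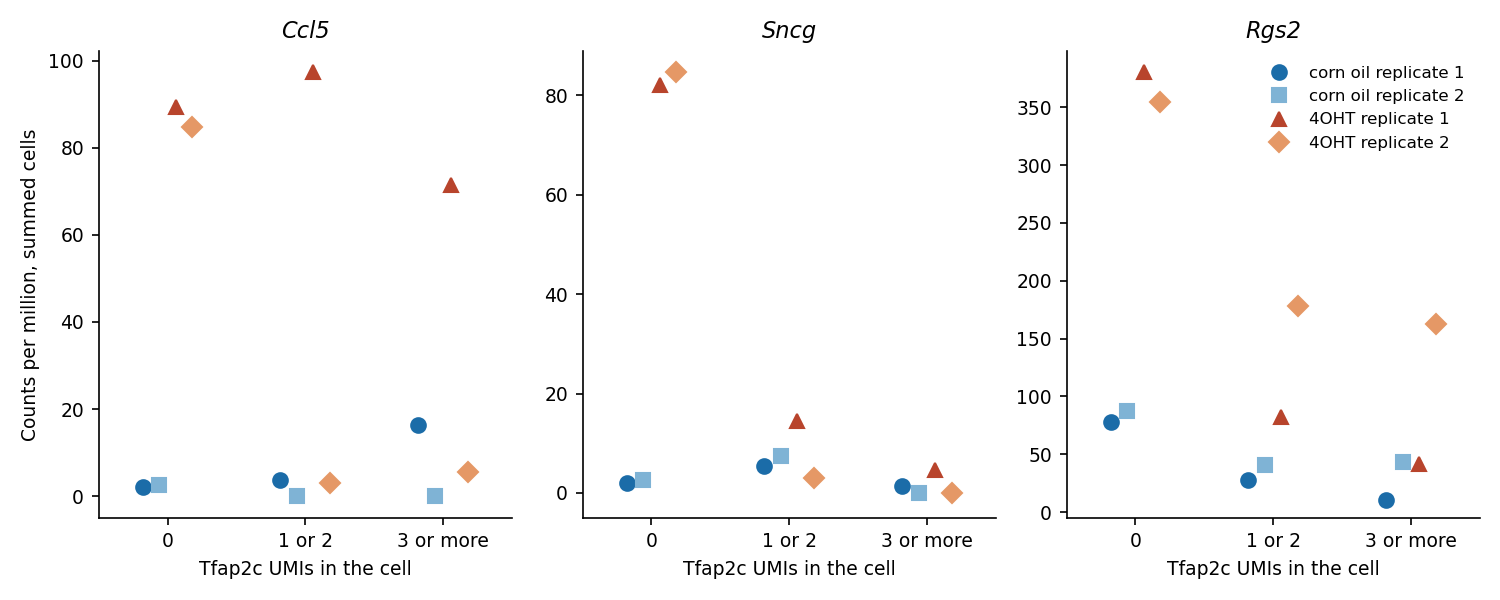
CPM of Ccl5, Sncg and Rgs2 (vertical axes) in deep basal cells by Tfap2c UMIs (horizontal axis), 1 point per library. In cells without Tfap2c both 4OHT libraries lie above both corn oil libraries for each gene. For Rgs2 this also holds in cells with 1 or 2 Tfap2c UMIs. In cells with 3 or more, corn oil replicate 2 lies within the 4OHT range for Rgs2.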

How the data were processed

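The authors deposited raw UMI counts per gene and cell barcode, made with Cell Ranger 3.0.1 on mm10, per the submitters' processing notes, from 3′ libraries, per the labels. Strand use and cell calling settings are not given in the sources used here. The members and gene lists were chosen with earlier results of these data known.

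No doublet caller was run. Cells were chosen as in the report with no filter on mitochondrial share (a limit of 10% was an alternative). Cells of both Tfap2c classes were drawn in equal numbers within bins of 0.25 log2 units of total UMIs (seed 11). Sums per library were tested with edgeR 4.0.16 (R 4.3.3; TMM, filterByExpr, quasi-likelihood F-test, library as a block), with Benjamini-Hochberg adjustment over all tested genes at 0.05. The 8 genes of the rule stayed in the library sizes and out of the counts. CPM were computed here from the deposited counts. An interaction of class and treatment used the same sums, and 4OHT against corn oil used all 364 cells. Each library is 1 mouse per the labels, so n = 2 per treatment. The tests were checked on simulated counts: most changes put in were recovered between the classes, but few between treatments or for the interaction, so a gene not called in those tests may still differ.

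Named genes were Tfap2c, the 12 largest passing changes in each direction with at least 20 CPM on average and the same sign in all 4 libraries, up to 4 passing members of each list, up to 6 per direction of the other 2 comparisons, and the 10 genes most and 5 least like Tfap2c in Spearman correlation among genes detected in at least 20% of cells. Genes outside this rule that are named were chosen after their values were seen. Alternatives were other depth limits, gates, draws, class limits, normalization (DESeq2 1.42.0 size factors and Wald test), no filter, no block and each library left out. 3 more were chosen after seeing the data: matching on the hypoxia and glycolysis sum, and the libraries numbered 1 or numbered 2 alone. Promoters were taken from RefSeq and gene positions from GENCODE, both on GRCm38.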

Additional observations from a re-analysis of the deposited data

Results flagged for a closer look

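For 9 of 4875 tested genes (0.185%), the difference between cells without and with 3 or more Tfap2c UMIs differed between the 4OHT and corn oil libraries by edgeR's interaction test (131 genes at an unadjusted p under 0.05). The log2 values below are the difference in 4OHT minus that in corn oil. Fos had a value of 2.49 (edgeR adjusted p = 0.00778), with 596 and 1134 CPM without against 121 and 97.8 CPM with Tfap2c in the 4OHT libraries, and 138 and 205 against 155 and 80.5 CPM in the corn oil libraries. The linker histone gene Hist1h1c (1.71) and the core histone gene Hist1h2bc (2.02) belong to families of near copies, so their separate counts are uncertain. Single cells weighed on both in 4OHT replicates 1 and 2, counted over all cells without Tfap2c before matching for depth. There 1 cell held 130 of 407 and 103 of 253 Hist1h2bc UMIs, and 48 of 247 and 60 of 179 Hist1h1c UMIs. The metallothionein gene Mt1 (0.69) and the protease inhibitor gene Slpi (−0.66) were abundant in every library.

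The other 4 values rested on few cells. For the chemokine gene Cxcl10 (6.53), 67 of the 77 UMIs of 4OHT replicate 1 without Tfap2c and 110 of the 116 of corn oil replicate 1 with 3 or more lay in 1 cell each. For the chaperone gene Cryab (−3.79), 221 of the 226 UMIs of 4OHT replicate 2 with 3 or more lay in 1 cell. For 8430408G22Rik (11.14), 1 cell of 4OHT replicate 2 without Tfap2c held 22 UMIs and 1 cell of corn oil replicate 2 with 3 or more held 26 of 27. Fabp4 (6.44) is a fatty acid carrier gene of endothelium and fat cells. It stood at 2975 to 6903 CPM and 8430408G22Rik at 388 to 2794 CPM in the endothelial-marker cells of these libraries, and the part of such cells in these values was not tested.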

How the results depend on the processing

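Of the 877 genes that passed between cells without and with 3 or more Tfap2c UMIs, none was called with the opposite sign under any of 20 alternatives. The limit of 10% mitochondrial UMIs removed no cell and so could change nothing. Alternatives that called 0 genes could not call an opposite sign. After matching on the hypoxia and glycolysis sum, 675 of the 877 were tested and 452 of those kept their sign. The count of passing genes moved by more than 1.5 times under several alternatives, most of which also changed the number of genes tested. It was 22 of 652 at 8000 UMIs or more and 91 of 4651 against cells with 1 or 2 Tfap2c UMIs. With basal set from keratins only it was 481 of 2251, beside 877 of 3958 (22.2%) in the main fit. With at most 2 UMIs of Krt8, Krt18 and Krt19 (42 cells) it was 0 of 376. DESeq2's Wald test gave 431 of 3189, and the fit without the library block 231 of 3958. Of the alternatives chosen after seeing the data, the libraries numbered 2 gave 254 of 1947. Matching on the hypoxia and glycolysis sum gave 0 of 2374. Leaving out each library gave 237 of 2127 (without corn oil replicate 1) to 926 of 5399 (without 4OHT replicate 2). Between treatments the 3 genes became 1 (keratins only), 14 (DESeq2) and 70 (no filter on low counts), and leaving out each library gave 0 to 73. The 9 interaction genes became 2 (keratins only), 0 (DESeq2), 15 (no filter) and 3 (no matching of depth), and leaving out each library gave 0 to 19. The causes were not tested. With the replicate number as a block, 40 genes passed between treatments, 18 for the interaction, and the share difference was 3.73 points. Replicates 1 deviated together (r = 0.39 over 5069 genes), but the labels tie equal numbers to nothing shared and there are only 2 pairs. The share difference ran from 0.978 to 9.18 points under other gates and depths, and from −4.72 (without corn oil replicate 1, reversed) to 12.2 points on leaving out each library. Over 96 results, each of 1 gene in 1 test, 1579 comparisons were made, and a gene can count in more than 1 test. Of the comparisons, 1245 kept sign and side of the threshold, 303 lost the call and 31 turned. Settings in which a gene had too few counts to be tested are not among them. At 8000 UMIs or more the log2 fold change turned to −1.10 for Gadd45g, −0.18 for Hspb1, −0.40 for Hspa1a and −0.18 for Thbs1. Against cells with 1 or 2 Tfap2c UMIs it turned to −0.028 for Trf, −0.016 for Ly6a and 0.10 for Tfap2b. Tfap2b was 0.058 with keratins only and 0.57 in the libraries numbered 2, where Oxtr was 0.0078. Leaving out each library, Tfap2b ran from −0.22 to 0.14 (0.062 without corn oil replicate 1) and Tfap2a from −0.34 to 0.22. Tfap2a was 0.19 in a second draw and 0.33 with keratins only. After matching on the hypoxia and glycolysis sum it was 0.32 for Igfbp2, −0.12 for Mylk, 0.045 for Plet1, −0.094 for Klf6, −1.05 for Nr4a1, −0.16 for Ifit1, −0.014 for Irf7, 0.024 for Ddit3, 0.18 for Herpud1, 0.15 for Sdf2l1, 0.15 for Hsp90b1, −0.28 for Hspa1b, −0.44 for Thbs1, 0.053 for Gapdh and −0.19 for Ifitm2. Gapdh is part of the matched sum, so the matching itself drew its value towards 0. The Cxcl10 interaction was −2.17 with keratins only. The treatment tests have 2 libraries a group, with 41 and 60 cells without Tfap2c in the smaller libraries.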

Other observations

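For Il6 and Procr, which had too few counts to be tested between the classes, a few cells held most UMIs. The cytokine gene Il6 had 1, 32, 46 and 8 UMIs in the cells without Tfap2c (corn oil 1 and 2, 4OHT 1 and 2) and 1, 0, 0 and 0 in all cells with 3 or more. In corn oil replicate 2, 1 cell held 29 of the 32, and in 4OHT replicate 1, 1 cell held 30 of the 46. Procr, the protein C receptor gene and a proposed mammary stem cell marker, had 5, 5, 68 and 4 UMIs against 15, 3, 2 and 0, and 1 cell of 4OHT replicate 1 held 48 of the 68. In the endothelial-marker cells of the same libraries Il6 stood at 0, 881, 19.8 and 312 CPM and Procr at 841, 594, 1374 and 946 CPM, and the part of such cells in these values was not tested. These values carry no test.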
